A study of Homo sapiens with 28 samples.

Results

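The 6 genes described here make and balance cellular polyamines: ODC1, AMD1, SRM, OAZ1, AZIN1 and SAT1. They were chosen by name as members of 1 pathway and found in the read counts by their Ensembl identifiers, as 6 of 29180 genes with reads. The submitters' processing notes name the genome build GRCh38, and the positions here are those of the RefSeq genes of that build (GRCh38.p14). ODC1 (ENSG00000115758) spans chr2:10439968-10448327. AMD1 (ENSG00000123505) spans chr6:110814617-110895713. SRM (ENSG00000116649) spans chr1:11054589-11060018. OAZ1 (ENSG00000104904) spans chr19:2269486-2273488, AZIN1 (ENSG00000155096) lies on chromosome 8, and SAT1 (ENSG00000130066) spans chrX:23783173-23786210. In each case the chromosome of the reads was that of the RefSeq gene.

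Polyamines (putrescine, spermidine and spermine) are small positively charged molecules that bind nucleic acids and are needed for growth and translation. ODC1, ornithine decarboxylase, makes putrescine from ornithine. AMD1, S-adenosylmethionine decarboxylase, supplies the aminopropyl donor, with which SRM, spermidine synthase, turns putrescine into spermidine. OAZ1, antizyme, binds ODC1 protein and delivers it to the proteasome; its own translation needs a ribosomal frameshift that polyamines promote. AZIN1, antizyme inhibitor, resembles ODC1 but lacks its activity, and it sequesters antizyme. SAT1 acetylates spermidine and spermine, a step of their breakdown and export. ODC1 protein is known for its short life, and the pathway as a whole for feedback by polyamines on several of its steps.

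The study measured RNA turnover in HEK293T cells, a transformed human embryonic kidney line, by nucleotide-recoding RNA sequencing. Cells were given 100 µM 4-thiouridine (s4U) for 2 h or none. New RNA takes up s4U, which a chemical step recodes so that it is read as C, and reads from new RNA then carry T-to-C mismatches. The analysed libraries used 3 ways of recoding s4U: oxidation by NaIO4 in the presence of trifluoroethylamine, pH 5.2 (NaIO4/TFEA); alkylation by iodoacetamide; and OsO4 in ammonia (OsO4/NH3). There were libraries of each with drop-out handling (DO) and with improved handling (IH). According to the design text, these stand for common protocols and for protocols meant to lose less s4U RNA and fewer T-to-C reads, and the labels do not say which steps differed. Each of the 6 combinations had 2 labelled libraries and 1 unlabelled library, giving 12 groups and 18 libraries: 6 labelled and 3 unlabelled per handling. All came from 1 cell line, and the labels do not say whether duplicates are separate cultures. The p-values therefore measure only the spread between these libraries. With 1 unlabelled library per group, the count tests took their spread from the labelled pairs, also where unlabelled RNA was compared. The spread between unlabelled libraries of 1 group was thus not measured. In bulk RNA, fewer cells and less RNA per cell cannot be told apart.

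The libraries held 1935777 to 9962345 aligned reads, of which 890189 to 4851183 were exonic reads of a single gene. The converted share, meaning the percent of reads that carry 1 or more T-to-C mismatches, was 16.7% to 25.0% in labelled DO libraries, 40.0% to 58.2% in labelled IH libraries and 2.41% to 5.17% in unlabelled ones. The handlings also differed in the share of reads given to no single gene, 29.4% to 39.0% under DO and 15.0% to 23.6% under IH. The count table names genes by identifier alone, so the marker lists could be looked up only in the authors' table of rate constants. It held 4 of 8 markers of HEK293T cells (NEFL, NEFM, VIM and KRT18, but not KRT8, PAX2, LHX1 or GATA3). It held 0 of 6 markers of blood, liver, endothelial and connective tissue cells. That table has only 1600 to 2262 transcripts per chemistry, so absence from it does not show absence of expression.

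The reads of OAZ1 and SAT1 needed care. The count table has 1 column for the gene a read lies in and another for the gene whose exons hold it. None of the 9308 exonic reads of OAZ1 were given to it in the first column, which listed each with an overlapping gene, ENSG00000273734. Of the 1039 exonic reads of SAT1, 550 were shared there with ENSG00000288706. Exonic reads were therefore taken by the exon column, which gave 4883 to ODC1, 3103 to AMD1, 6864 to SRM and 2375 to AZIN1. It left out 1373 further exonic reads of OAZ1 and 1 of SAT1, which were ambiguous in both columns. Without its shared reads, the log2 difference of SAT1 between handlings was 0.81 in labelled RNA (edgeR adjusted p = 0.0214) and 2.07 in unlabelled RNA (0.00055), in place of the 0.80 and 1.39 given below.

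All 6 genes differed between handlings in labelled RNA, 3 of them lower and 3 higher under IH. SRM fell most, 5.42-fold in mean level, and OAZ1 fell 3.46-fold. AZIN1 rose 2.78-fold and AMD1 rose 2.14-fold. SAT1 rose by less, and ODC1 fell with TMM scaling but not with scaling to the exonic total or to all aligned reads; both had labelled groups that overlapped. The groups of the other 4 did not overlap, nor did those of 59.6% of all genes tested. These counts are to be read against all genes: 80.7% of 13528 genes tested were called (47.0% higher, 33.7% lower), at an adjusted p under 0.05 in edgeR's quasi-likelihood test. The median log2 difference was 0.23 over the 6 genes and 0.47 over all genes tested. Scaled to the exonic total without TMM, the calls split into 7658 higher and 3257 lower in place of 6358 and 4559, and the median of all genes was 1.03; in unlabelled RNA they split into 6596 and 3062 in place of 5614 and 4135. Levels below are exonic counts relative to library size (CPM) after scaling by edgeR's trimmed mean of M-values (TMM); they are not divided by length, so they compare libraries and not genes.

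**Figure D1:**
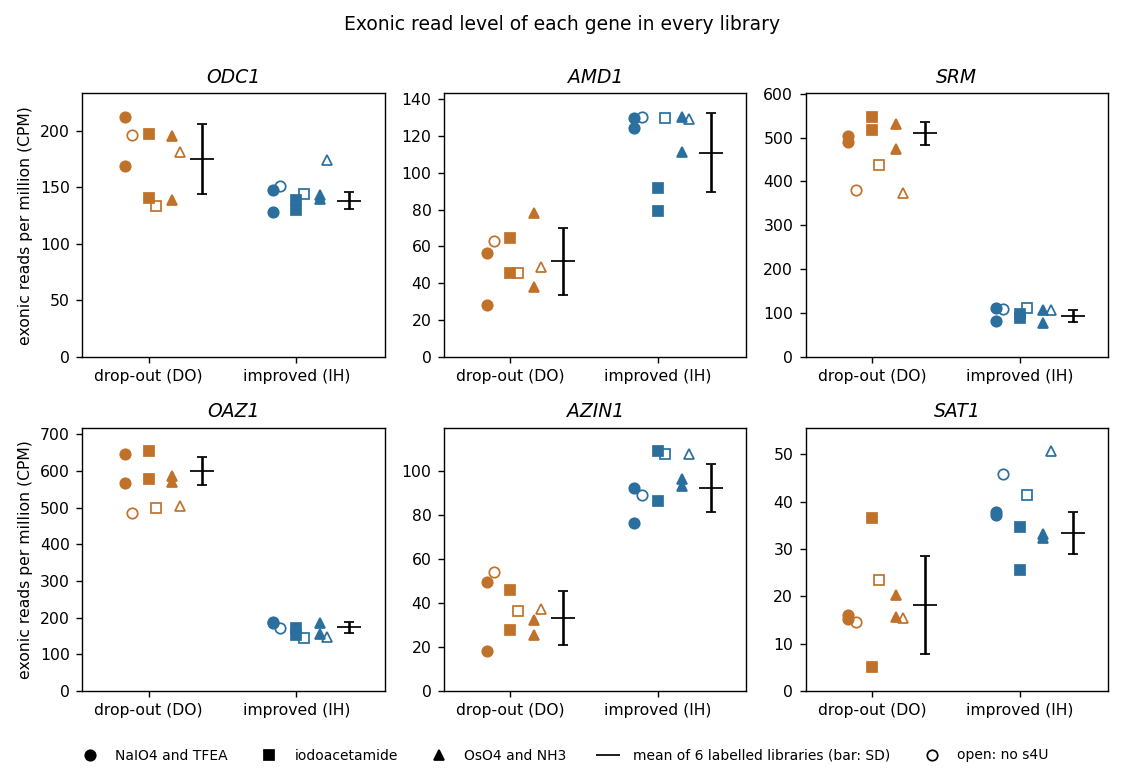
Exonic counts relative to library size (CPM, linear axis from 0) of the 6 genes in each of the 18 libraries, by handling; filled symbols are labelled, open symbols unlabelled, shapes are chemistries, and the bar is the mean and SD of 6 labelled libraries. SRM and OAZ1 stood lower under IH in every library, AMD1 and AZIN1 higher, and ODC1 and SAT1 had overlapping labelled groups.

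ODC1, the first enzyme of the pathway, stood at 139 to 212 CPM (median 182) in the 6 labelled DO libraries and at 128 to 148 CPM (median 139.5) in the 6 labelled IH libraries. The groups overlapped, and the DO libraries were the more scattered, at 176 ± 31.1 against 138 ± 7.51 (SD, n = 6 each). The log2 difference, IH minus DO, was -0.35 (SE 0.14, edgeR adjusted p = 0.0233), but it was 0.23 (adjusted p = 0.0873) without TMM and 0.19 (0.241) scaled to all aligned reads. Relative to the median gene, which moved with the scaling, it was -0.81 with TMM and -0.80 with each of the other scalings. With TMM, 37.3% of genes tested had a lower difference. The call was also lost without any of 3 IH libraries: NaIO4/TFEA replicate 1 (edgeR adjusted p = 0.0749), iodoacetamide replicate 1 (0.0591) or OsO4/NH3 replicate 2 (0.0560). In unlabelled RNA ODC1 stood at 196, 134 and 182 CPM under DO and 151, 145 and 174 CPM under IH, for NaIO4/TFEA, iodoacetamide, and OsO4/NH3. That difference was -0.11 (SE 0.19, edgeR adjusted p = 0.622), with 72.1% of all genes called; it was 0.35 without TMM (adjusted p = 0.0782) and 0.35 scaled to all aligned reads (0.138). Relative to the median gene these were -0.56, -0.55 and -0.55. ODC1 thus lay below the median gene in labelled and unlabelled RNA. A change of scaling moves all genes nearly alike, so the likeness of the 3 values is not added support.

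AMD1, which supplies the aminopropyl donor, stood at 28.1 to 78.4 CPM (median 51.0) in labelled DO libraries and 79.0 to 130.0 CPM (median 118) in labelled IH libraries. Every IH library lay above every DO library, the closest pair being iodoacetamide IH replicate 1 at 79.0 and OsO4/NH3 DO replicate 1 at 78.4. The means were 51.9 ± 18.3 and 111 ± 21.3 (SD, n = 6 each), with a log2 difference of 1.09 (SE 0.18, edgeR adjusted p = 1.0e-05). Of genes tested, 60.4% had a lower difference, so this rise was not far from that of the median gene. Unlabelled RNA showed the same order, with 62.9, 45.7 and 48.6 CPM under DO and 130.0, 129.8 and 129 CPM under IH. The unlabelled log2 difference was 1.32 (SE 0.26, edgeR adjusted p = 9.4e-05). By chemistry, where 62.7%, 63.6% and 62.6% of genes were called in the same order, the labelled difference was 1.58 for NaIO4/TFEA, 0.68 for iodoacetamide (not called, edgeR adjusted p = 0.0657) and 1.03 for OsO4/NH3.

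SRM, which joins the products of the other enzymes into spermidine, stood at 473 to 546 CPM (median 509.6) in labelled DO libraries and 77.4 to 112 CPM (median 93.3) in labelled IH libraries. The gap between the groups was far wider than either group, with means of 509.6 ± 26.8 and 94.0 ± 13.7 (SD, n = 6 each). The log2 difference was -2.44 (SE 0.13, edgeR adjusted p = 2.9e-13), and 2.15% of genes tested had a lower one. Unlabelled RNA had 381, 438 and 373 CPM under DO and 109, 112 and 108 CPM under IH. That log2 difference was -1.85 (SE 0.18, edgeR adjusted p = 1.0e-08). SRM was lower under IH in each chemistry, by -2.36 for NaIO4/TFEA, -2.50 for iodoacetamide and -2.45 for OsO4/NH3 on the log2 scale in labelled RNA.

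OAZ1, the antizyme, moved in the same direction as SRM. It stood at 567 to 653 CPM (median 582) in labelled DO libraries and 154 to 187 CPM (median 178) in labelled IH libraries. The groups did not overlap, and the means were 599.8 ± 39.1 and 173 ± 15.3 (SD, n = 6 each). The log2 difference was -1.79 (SE 0.11, edgeR adjusted p = 3.8e-12), and 10.2% of genes tested had a lower one. Unlabelled RNA had 486, 499.8 and 505 CPM under DO and 172, 143 and 146 CPM under IH, a log2 difference of -1.70 (SE 0.16, edgeR adjusted p = 7.5e-09).

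AZIN1, the antizyme inhibitor, moved the other way from antizyme. It stood at 18.1 to 49.6 CPM (median 29.9) in labelled DO libraries and 76.5 to 109 CPM (median 92.8) in labelled IH libraries, with no overlap. The means were 33.2 ± 12.3 and 92.2 ± 10.8 (SD, n = 6 each), a log2 difference of 1.51 (SE 0.20, edgeR adjusted p = 3.6e-07). Among genes tested, 67.7% had a lower difference, so AZIN1 was not as far out as OAZ1 was at the low end. Unlabelled RNA had 54.1, 36.2 and 37.1 CPM under DO and 88.8, 107 and 108 CPM under IH, a log2 difference of 1.27 (SE 0.27, edgeR adjusted p = 0.000256). AZIN1 was thus higher under IH in both labelled and unlabelled RNA.

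SAT1, the acetyltransferase, had the fewest reads, 4 to 79 per labelled DO library and 39 to 97 per labelled IH library. It stood at 15.9 CPM in the median labelled DO library and 33.9 CPM in the median labelled IH library. The ranges, 4.96 to 36.5 and 25.6 to 37.9 CPM, overlapped because iodoacetamide DO replicate 2 stood at 36.5 CPM; its partner, replicate 1, held the lowest value on 4 reads. The log2 difference was 0.80 (SE 0.27, edgeR adjusted p = 0.00876), and 55.4% of genes tested had a lower one. It was 1.45 without iodoacetamide DO replicate 2 and 0.47 without replicate 1 of that group, called in both cases. By chemistry, SAT1 in labelled RNA was called with NaIO4/TFEA (1.26, edgeR adjusted p = 0.0250) but not with iodoacetamide (0.28, adjusted p = 0.592) or OsO4/NH3 (0.87, adjusted p = 0.109). Of the genes above, SRM, OAZ1 and AZIN1 were called in each chemistry and ODC1 in none (-0.47, -0.34 and -0.23), where 62.7%, 63.6% and 62.6% of all genes were called. In unlabelled RNA SAT1 stood at 14.6, 23.4 and 15.3 CPM under DO, on 20, 22 and 12 reads, and at 45.9, 41.3 and 50.6 CPM under IH. That log2 difference was 1.39 (SE 0.37, edgeR adjusted p = 0.00215).

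With all reads of each gene counted, exonic and intronic, the library totals and the scaling also changed. The reads of OAZ1, which has no intronic read of its own, were the same in both settings. Its log2 difference, -1.79 with exonic reads alone, thus moved only with the totals and the scaling. The labelled log2 differences were then -1.11 for ODC1, 0.65 for AMD1, -3.21 for SRM, -2.64 for OAZ1, 0.75 for AZIN1 and -0.07 for SAT1. SAT1 was then not called (edgeR adjusted p = 0.842), and the other 5 kept their directions and calls. Over all genes, 12913 of 16442 were called in that setting, with a median log2 difference of 0.38. The mean number of T positions per read also differed among the genes. It was 49.8 for AZIN1, 47.2 for AMD1 and 44.5 for ODC1, against 35.3 for SAT1, 33.9 for OAZ1 and 32.2 for SRM, and 36.2 in the median gene. Over the 13528 genes, T positions per read and the labelled log2 difference had a Spearman correlation of 0.644 (0.620 in unlabelled RNA), given as a description since all genes share the same libraries. The part of this in the members' differences was not tested.

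The presence of s4U was compared with the handling differences above. None of the 6 genes was called between labelled and unlabelled RNA under either handling, where edgeR called 0.214% of 13528 genes under DO (1462 genes at an unadjusted p under 0.05) and 0.229% under IH (977 genes). These counts moved when 1 library was left out. The 29 genes called under DO became 237 without the labelled iodoacetamide DO replicate 1, 99 without NaIO4/TFEA DO replicate 2, 93 without OsO4/NH3 DO replicate 2 and 57 without iodoacetamide DO replicate 2, 9 to 15 without 1 of the 3 unlabelled DO libraries, and 17 or 18 without 1 of the 6 labelled IH libraries. The 31 under IH became 13 to 22 without 1 of the 9 IH libraries, 13 being reached without the unlabelled library of NaIO4/TFEA or of OsO4/NH3, and 64 and 62 without iodoacetamide DO replicates 1 and 2. None of the 6 genes was called without any 1 library. The largest difference under DO relative to its SE was that of SRM, 0.36 higher on the log2 scale with s4U (SE 0.15, edgeR adjusted p = 0.386). For AMD1 the difference was -0.02 (SE 0.25) under DO and -0.25 (SE 0.20) under IH. For SAT1 it was 0.13 (SE 0.38) and -0.47 (SE 0.27). The test of the change in the s4U effect between handlings called 0 genes in edgeR (993 at an unadjusted p under 0.05) and 3 in DESeq2; edgeR called 18 without iodoacetamide DO replicate 1 and 5 without replicate 2 of that group. SRM came closest among the 6, at -0.58 (SE 0.21, edgeR adjusted p = 0.587).

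The converted share separated the 6 genes widely. Under IH it averaged 67.7% of exonic reads for AMD1, 37.0% for SAT1, 32.9% for AZIN1, 20.5% for ODC1, 16.5% for OAZ1 and 11.6% for SRM. Each mean was lower under DO. OAZ1 and ODC1 were called between handlings, and SRM was not. The labelled groups of OAZ1 did not overlap, as for 43.4% of genes with enough reads for the test, and those of the other 5 did. All 1705 genes called, 81.9% of the 2081 with at least 50 exonic reads in every labelled library, were higher under IH.

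**Figure D2:**
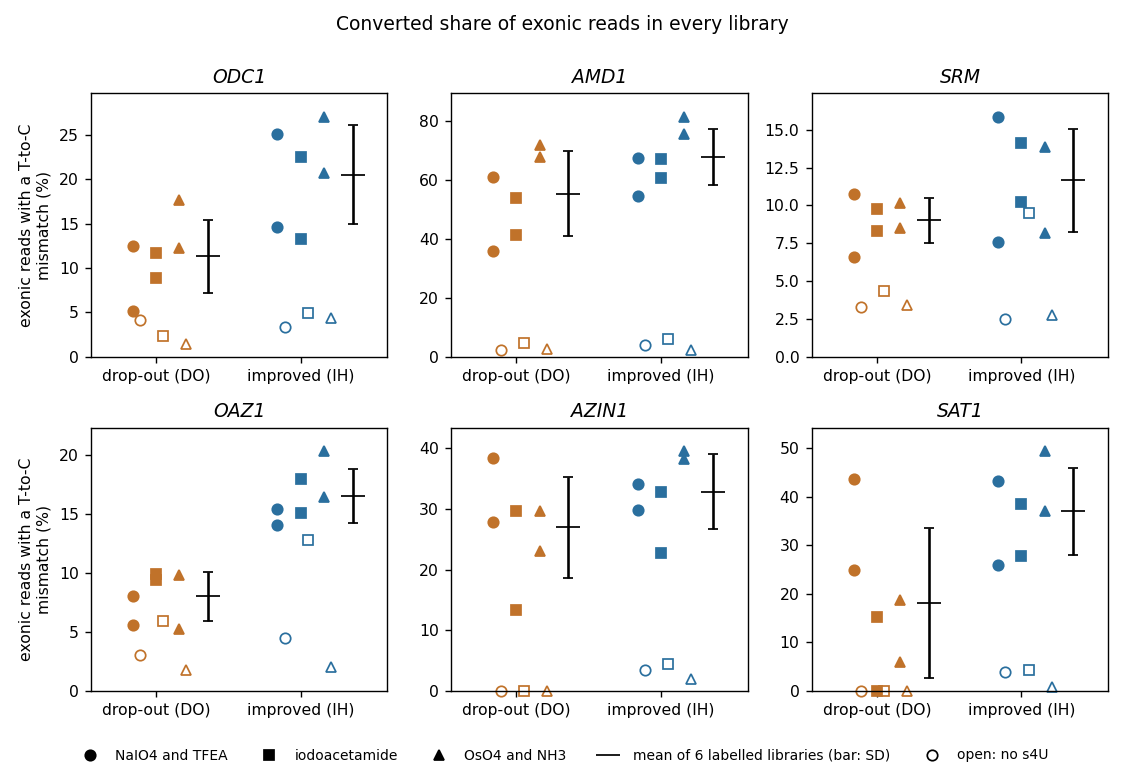
Converted share (percent of exonic reads carrying 1 or more T-to-C mismatches) of the 6 genes in each library, by handling; filled symbols are labelled, open symbols unlabelled, and the bar is the mean and SD of 6 labelled libraries. By the mean, AMD1 stood above the other 5 genes in both handlings, and OAZ1 alone had labelled groups that did not overlap.

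For ODC1 the converted share was 5.21% to 17.6% (median 11.9%) in labelled DO libraries and 13.2% to 26.9% (median 21.6%) in labelled IH libraries. The groups overlapped, with means of 11.3% ± 4.12 and 20.5% ± 5.54 (SD, n = 6 each). The log2 odds were 1.02 higher under IH (SE 0.29, edgeR adjusted p = 0.0011). Unlabelled libraries gave 1.41% to 4.10% under DO and 3.33% to 4.90% under IH, below every labelled value.

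AMD1 had a converted share of 35.7% to 71.9% (median 57.4%) under DO and 54.5% to 81.1% (median 67.1%) under IH, against 2.29% to 5.91% in the 6 unlabelled libraries. The labelled groups overlapped, and the OsO4/NH3 libraries were highest in both. With 28 to 99 reads per labelled DO library, AMD1 could not be tested at 50 reads. At a minimum of 20 reads, where 70.5% of 4324 genes were called, its log2 odds were 0.77 higher under IH (edgeR adjusted p = 0.0326). Pooled over libraries, 192 of 350 DO reads were converted (54.9%, 95% Wilson interval 49.6% to 59.99%) and 930 of 1338 IH reads (69.5%, 67.0% to 71.9%). Such intervals cover counting error only, since amplified reads are not independent molecules.

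SRM had the lowest mean converted share of the 6 under IH, 7.60% to 15.8% (median 12.1%), and 6.60% to 10.7% (median 9.16%) under DO. The groups overlapped, and the difference in log2 odds was 0.40 (SE 0.27, edgeR adjusted p = 0.155). When a read had to carry at least 2 T-to-C mismatches, the difference was 1.08 and was called (edgeR adjusted p = 0.0216). Unlabelled libraries gave 3.26% to 4.37% under DO and 2.47%, 9.47% and 2.75% under IH, the 9.47% being the iodoacetamide library.

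OAZ1 had a converted share of 5.27% to 9.89% (median 8.74%) under DO and 14.04% to 20.3% (median 15.9%) under IH, with no overlap. The means were 8.01% ± 2.10 and 16.5% ± 2.27 (SD, n = 6 each), a difference of 1.21 in log2 odds (SE 0.23, edgeR adjusted p = 1.9e-06). The unlabelled libraries gave 3.01%, 5.96% and 1.77% under DO and 4.49%, 12.8% and 2.02% under IH. The 12.8% is again the iodoacetamide IH library, with a 95% Wilson interval of 9.1% to 17.5%; the labelled libraries of that group gave 15.0% and 17.9%. After the unlabelled share was subtracted, OAZ1 stood higher under IH than DO by 6.37 percentage points for NaIO4/TFEA, 10.6 for OsO4/NH3, and 0.03 for iodoacetamide. The same subtraction gave SRM 3.84, 2.38 and -1.96 points in that order, AZIN1 -4.54, 10.6 and 1.81, and SAT1 -3.72, 30.1 and 21.3. ODC1 (5.07 to 11.8 points) and AMD1 (8.94 to 14.9 points) stood higher under IH in all 3 chemistries. With at least 2 T-to-C mismatches per read, the difference of OAZ1 between handlings was 1.99 in log2 odds (edgeR adjusted p = 4.2e-06). The converted reads of OAZ1 in that unlabelled library each carried a single mismatch.

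AZIN1 had a converted share of 13.3% to 38.5% (median 28.7%) under DO, on 18 to 60 reads per library, and 22.7% to 39.5% (median 33.5%) under IH. The groups overlapped, and at a minimum of 10 reads, where 60.8% of 6150 genes were called, AZIN1 was not called (0.41 in log2 odds, edgeR adjusted p = 0.322). Of its 137 unlabelled DO reads 0 were converted, which allows a share of up to 2.19%, and the unlabelled IH libraries gave 1.96% to 4.40%.

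SAT1 had a converted share of 0% to 43.8% (median 17.0%) under DO and 25.9% to 49.4% (median 37.8%) under IH. The DO value of 0% came from 0 of 4 reads, and the wide spread among DO libraries rests on few reads. Pooled, 27 of 148 DO reads (18.2%, 95% Wilson interval 12.9% to 25.2%) and 151 of 392 IH reads (38.5%, 33.8% to 43.4%) were converted. Of the pooled DO reads, 79 came from iodoacetamide DO replicate 2 alone, with 15.2% converted. By chemistry, the DO and IH means were 34.4% and 34.6% with NaIO4/TFEA, 7.59% and 33.2% with iodoacetamide, and 12.3% and 43.3% with OsO4/NH3. SAT1 had too few reads for the test at any minimum tried. Of 54 unlabelled DO reads 0 were converted, which allows up to 5.56%, and the unlabelled IH libraries gave 0.83% to 4.29%.

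A read with more T positions has more chances to show a mismatch. The share of new reads was therefore estimated per gene and library as a mixture of 2 binomials over the T positions, with the mismatch rate of old RNA from the matching unlabelled library (0.075% to 0.111% per T) and that of new RNA fitted in each library (3.98% to 9.86% per T). Because these rates are set over all genes, a gene with a background of its own, such as OAZ1 in the iodoacetamide IH library without s4U, is not corrected for it. By this measure 69.7% of 2081 genes were called between handlings (69.1% higher and 0.673% lower under IH). OAZ1 and ODC1 were called higher, and SRM was not called. The groups of OAZ1 did not overlap, as for 894 of the 2081 genes.

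**Figure D3:**
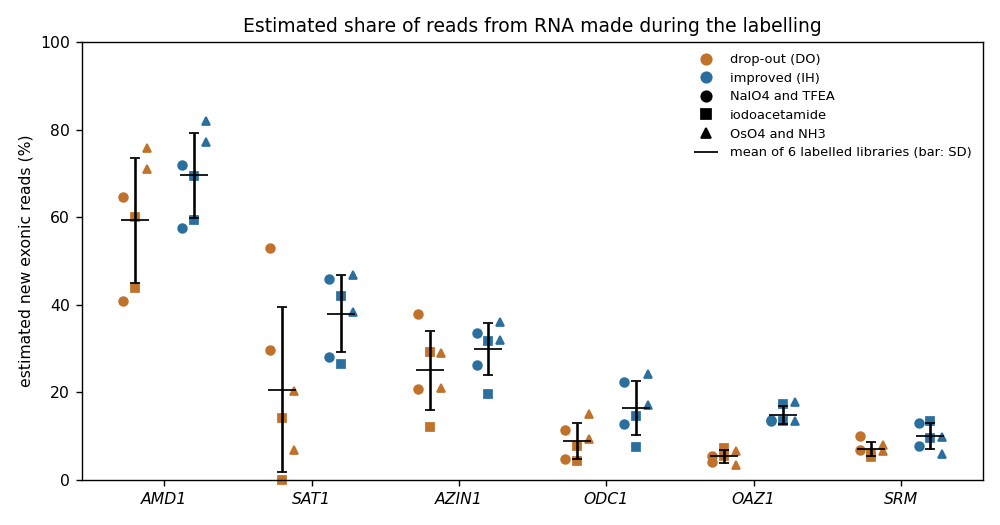
Estimated share of new reads (percent) of the 6 genes in each of the 12 labelled libraries, by handling; shapes are chemistries and the bar is the mean and SD of 6 libraries. By the mean, AMD1 was highest under both handlings and SRM lowest under IH, and OAZ1 had groups that did not overlap.

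The share of new OAZ1 reads was 3.45% to 7.29% (median 5.45%) under DO and 13.4% to 17.7% (median 13.6%) under IH. The groups stood apart, and the mean difference was 9.44 percentage points (two-sided exact permutation of handling within chemistry, p = 0.00926, the smallest it allows; adjusted p = 0.0168). For ODC1 the share was 4.26% to 15.1% (median 8.57%) under DO and 7.44% to 24.2% (median 15.8%) under IH. Its groups overlapped, and the difference of 7.65 points had an exact permutation p of 0.0185 (adjusted p = 0.0286). This call was lost in STAR D alignments (5.19 points, adjusted exact permutation p = 0.0848), without any 1 of 8 of the 12 labelled libraries, and with handling permuted within replicate number as well as chemistry (adjusted exact permutation p = 0.0839). For SRM the share was 5.20% to 9.94% (median 6.68%) under DO and 5.98% to 13.5% (median 9.66%) under IH, a difference of 2.89 points (exact permutation p = 0.0926, adjusted p = 0.115). Leaving out 1 library gave 2.01 to 3.78 points, called only without OsO4/NH3 IH replicate 2 (3.53 points).

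AMD1 and AZIN1 were tested for new reads only at a minimum of 10 reads, where 42.7% of 6150 genes were called. The share of new AMD1 reads was 40.8% to 75.9% (median 62.3%) under DO and 57.5% to 82.1% (median 70.7%) under IH. The ranges largely coincided, and the difference of 10.2 points was not called (adjusted exact permutation p = 0.148). AZIN1 had 11.98% to 38.0% (median 25.0%) under DO and 19.6% to 36.1% (median 31.7%) under IH, a difference of 4.82 points that was not called either (adjusted exact permutation p = 0.377). SAT1, not tested, had 0% to 53.1% (median 17.1%) under DO and 26.5% to 46.8% (median 40.1%) under IH.

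Placed among the 6150 genes with at least 10 reads per labelled library, whose median share of new reads under IH was 26.9%, AMD1 lay far up: 96.2% of genes had a lower share. AZIN1 lay near the middle, above 57.1% of genes. ODC1 lay above 22.8%, OAZ1 above 19.2% and SRM above 8.4%. If RNA levels are taken as constant during the 2 h of label, the share of new reads f gives a turnover rate of -ln(1 - f)/2 per hour. Under IH this was 0.617 ± 0.166 per hour for AMD1, 0.242 ± 0.070 for SAT1, 0.178 ± 0.041 for AZIN1, 0.091 ± 0.037 for ODC1, 0.080 ± 0.012 for OAZ1 and 0.052 ± 0.016 for SRM (SD, n = 6 libraries each). The DO values of the same rate were 0.476, 0.130, 0.147, 0.046, 0.028 and 0.037 per hour. The genes thus spread over a wide range of rates. The rates are a transform of the shares above, of which those of OAZ1 and ODC1 alone were called between handlings, and the ranges of all but OAZ1 overlapped.

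The order of the 6 genes was compared within libraries. Under IH, AMD1 had a higher share of new reads than SAT1 in 6 of 6 libraries, by 31.7 ± 9.28 points (SD of the within-library differences). SAT1 and AZIN1 were not separated beyond that spread (8.10 ± 12.5 points, higher in 4 of 6). AZIN1 exceeded ODC1 in 6 of 6 libraries, by 13.4 ± 8.93 points. ODC1 and OAZ1 were not separated (1.62 ± 6.56 points, 4 of 6), and OAZ1 exceeded SRM in 5 of 6 libraries, by 4.89 ± 3.69 points. The order ran from AMD1 through SAT1 and AZIN1 to ODC1, OAZ1 and SRM in both measures under IH. Under DO, AMD1 exceeded the next gene by mean, AZIN1, in 6 of 6 libraries, though SAT1 (53.1%) exceeded AMD1 (40.8%) in NaIO4/TFEA replicate 2, and each later neighbour pair differed by less than its spread in the share of new reads.

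Intronic reads come mostly from RNA not yet spliced. In labelled IH libraries 696 of 743 intronic AMD1 reads were converted (93.7%, 95% Wilson interval 91.7% to 95.2%), 305 of 354 of AZIN1 (86.2%, 82.2% to 89.4%), 65 of 123 of SRM (52.8%, 44.1% to 61.4%), 96 of 185 of ODC1 (51.9%, 44.7% to 59.0%) and 22 of 30 of SAT1 (73.3%, 55.6% to 85.8%). Within these 6 libraries the intronic share exceeded the exonic share in 6 of 6 for each of the 3 genes with at least 10 intronic reads in every library. The excess was 49.0 ± 12.3 points for AZIN1, 32.3 ± 13.7 for ODC1 and 25.5 ± 8.10 for AMD1 (SD, n = 6; exact sign-flip permutation p = 0.03125 each, the smallest that 64 sign patterns allow, adjusted p = 0.0332). Of 6991 genes so tested, 94.1% were called, with a median excess of 48.1 points. These are raw shares that do not take into account the T positions per read, which may differ between intronic and exonic reads. OAZ1 had no intronic read given to it alone. No member had the 20 intronic reads per labelled library that the test over both handlings required, in which 98.1% of 574 genes were called.

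**Figure D4:**
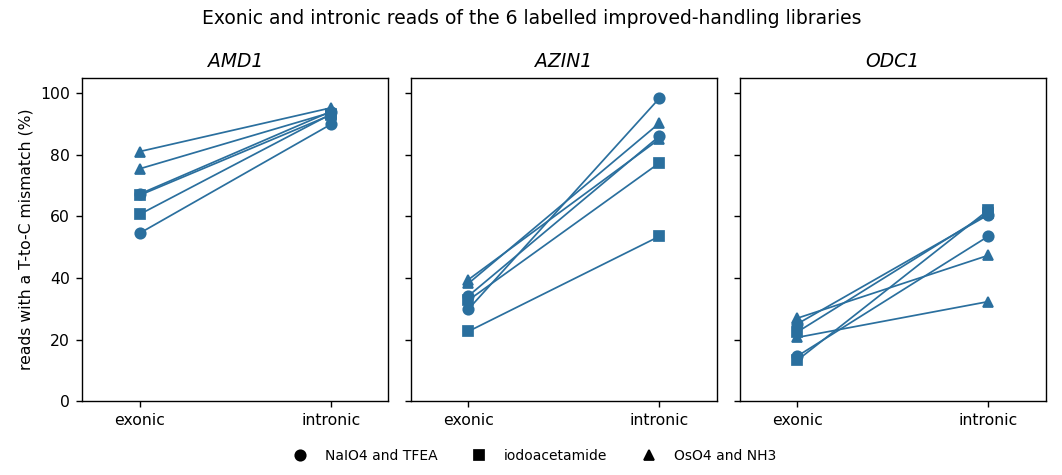
Converted share (percent) of intronic and exonic reads of AMD1, AZIN1 and ODC1 in the 6 labelled IH libraries, each line joining the shares of 1 library. AMD1 and AZIN1 had most intronic reads converted (93.7% and 86.2% pooled), and ODC1 about as many converted as not (51.9%).

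Intronic reads were a larger share of AMD1's reads under IH, 34.7% ± 5.12 against 14.1% ± 8.38 under DO (SD, n = 6 each). For ODC1 that share was 10.4% ± 0.74 against 5.06% ± 1.29, and for SRM 10.1% ± 3.55 against 5.72% ± 2.24. For AZIN1 it was 23.6% ± 6.54 against 19.2% ± 10.1, within the spread. Over all genes of a library, intronic reads were 44.02% ± 3.69 of the reads given to a single gene under IH and 29.5% ± 3.28 under DO, so the share was higher under IH in the libraries as a whole. The converted share of SRM's intronic reads was 15.4% under DO (35 of 227) and 52.8% under IH, and that of ODC1's was 31.3% (21 of 67) and 51.9%, from pooled reads without a test. For AZIN1 it was 48.0% (24 of 50) and 86.2%, for AMD1 89.3% (50 of 56) and 93.7%, and for SAT1, on few reads, 100% (12 of 12) and 73.3%.

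The reads were also deposited in other alignments, 7 in all. The main values come from HISAT-3N, an aligner that allows for base conversion, and were set against STAR under the settings code D. The converted share was lower with STAR in 12 of 12 labelled libraries for OAZ1 (-2.91 points, exact sign-flip permutation, adjusted p = 0.00181) and in 10 of 12 for SRM (-0.35 points, adjusted p = 0.0131). ODC1 was lower in 6 of 12 and was not called (-0.67 points, adjusted exact permutation p = 0.423). Of 2060 genes tested, 56.2% were called, and the median difference was -1.25 points. With lower read minimums, AMD1 was lower by -7.81 points in 12 of 12 libraries (at least 20 reads, 51.1% of 4276 genes called, adjusted exact permutation p = 0.00235) and AZIN1 by -3.07 points (at least 10 reads, 48.1% of 6078 called, adjusted exact permutation p = 0.0190). Converted reads were not fewer with STAR D: they numbered 104% of those with HISAT-3N for OAZ1, 107% for AMD1 and 102% for AZIN1, and 456 against 435 for SRM, while unconverted reads rose in number by more, for OAZ1 from 5544 to 7596.

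**Figure D5:**
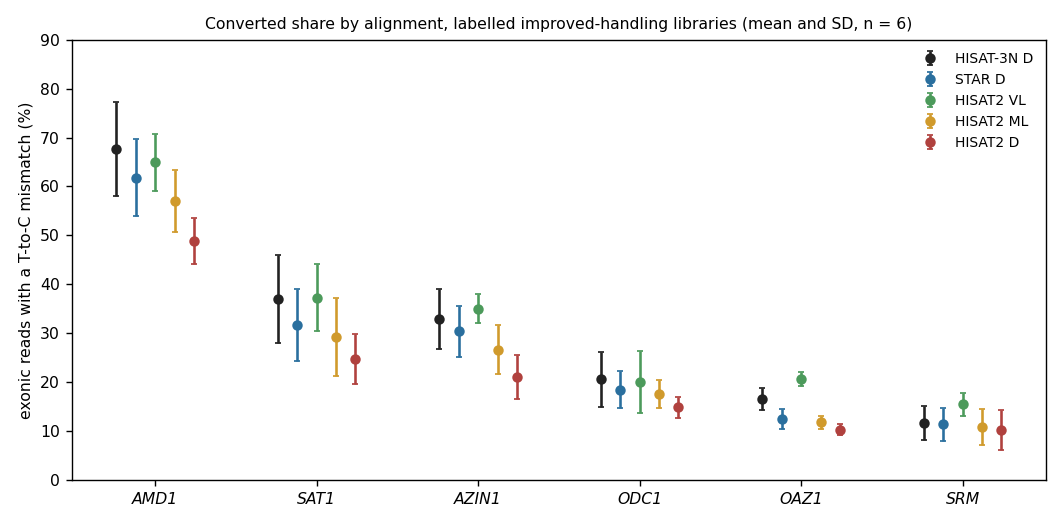
Mean converted share (percent) of the 6 genes in the 6 labelled IH libraries under 5 of the 7 alignments, with SD; the other codes of STAR, not drawn, gave nearly the values of STAR D. AMD1 fell from 67.7% with HISAT-3N to 48.8% with HISAT2 D, while SRM moved from 11.6% to 10.2%.

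The loss with HISAT2 D, an aligner without allowance for conversion, was uneven across the genes. Under IH, AMD1 stood at 48.8%, lower by 18.8 ± 8.91 points than with HISAT-3N (SD, n = 6). AZIN1 stood at 21.0%, SAT1 at 24.8%, ODC1 at 14.8%, OAZ1 at 10.2% and SRM at 10.2%, each lower in 6 of 6 libraries. Over both handlings, the number of converted reads with HISAT2 D was 62.7% of that with HISAT-3N for AMD1, 63.7% for AZIN1, 75.3% for SAT1, 83.5% for ODC1, 83.6% for OAZ1 and 99.1% for SRM. For SAT1 and ODC1 the loss lay under IH (70.2% and 75.7%), since under DO they had 104% and 102.9% of the converted reads with HISAT-3N. OAZ1 had more reads in each of the other alignments than in HISAT-3N, 126% with HISAT2 D, 133% with STAR D and 141% with HISAT2 VL. In HISAT2 VL its converted reads numbered 199% of those in HISAT-3N, and its converted share was higher by 4.51 points in 12 of 12 labelled libraries. SRM was also higher there, by 4.18 points in 12 of 12, with 161% of the converted reads; under DO its converted share was 13.6% in place of 9.01%. AMD1 had the highest mean of the 6 genes in all alignments.

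The 3 chemistries were compared within IH. Over 2081 genes the test of any difference in converted share called 0 genes in edgeR, with 60 at an unadjusted p under 0.05. ODC1 and OAZ1 had adjusted p = 0.974 and SRM 0.9901 in that edgeR test. In the 2 libraries each, ODC1 averaged 19.8% ± 7.41 with NaIO4/TFEA, 17.8% ± 6.51 with iodoacetamide and 23.8% ± 4.41 with OsO4/NH3. AMD1 averaged 60.9% ± 9.01, 63.8% ± 4.39 and 78.3% ± 3.96 in the same order. AZIN1 averaged 32.0% ± 3.05, 27.7% ± 7.15 and 38.9% ± 0.87. The mean of the OsO4/NH3 libraries was the highest for 5 of the 6 genes, SRM being the exception at 11.05% ± 4.02. The whole OsO4/NH3 IH libraries were also highest, with 58.2% and 51.9% of reads converted against 40.0% to 47.7% in the other labelled IH libraries. These orders were within the spread that the test allows for ODC1, OAZ1 and SRM. With lower read minimums, where edgeR again called 0 genes, AMD1 (at least 20 reads, adjusted p = 0.989) and AZIN1 (at least 10 reads, adjusted p = 0.993) were not called either.

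The degradation rate constants in the authors' deposited table, estimated with bakR, covered ODC1, SRM and OAZ1 but not the other 3 genes. Its time unit is not stated. In the authors' deposited table OAZ1 had the constants 0.0110 under DO and 0.0622 under IH in NaIO4/TFEA libraries, 0.0207 and 0.0671 in iodoacetamide ones, and 0.0172 and 0.0721 in OsO4/NH3 ones. The table's log2 changes for OAZ1 were 2.55, 1.70 and 2.10, each called (the authors' adjusted p = 4.5e-05, 0.000687 and 9.5e-05). The shares of transcripts called in the authors' deposited table were 53.3% of 2209, 50.3% of 1600 and 48.6% of 2262, and its median log2 changes were 1.18, 1.14 and 1.19. OAZ1 therefore lay above the median change in all 3 chemistries. ODC1 had log2 changes of 1.23, 0.72 and 0.78 in the authors' deposited table, of which only the first was called (adjusted p = 0.0221, 0.304 and 0.182). SRM had 0.54, 0.86 and -0.14 there, and none was called (adjusted p = 0.309, 0.165 and 0.823). Its constants under IH, 0.0502, 0.0485 and 0.0297, were higher than those of 18.3%, 25.8% and 5.13% of the table's transcripts. The authors' values are not independent of those above, since both come from the same libraries.

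Other genes of polyamine metabolism and its neighbours were looked up by symbol in the authors' deposited table, which held 10 of 33 listed. With NaIO4/TFEA 4 of 10 were called, with iodoacetamide 3 of 7 and with OsO4/NH3 5 of 9, all with a higher constant under IH. Over all its transcripts 53.3%, 50.3% and 48.6% were called, and nearly all of those calls were higher too (1162 of 1177, 782 of 805 and 1089 of 1099). The median log2 change of the listed genes was 0.29, 0.46 and 1.24, against 1.18, 1.14 and 1.19 over all transcripts of the authors' deposited table. The authors' deposited table called AHCY, which hydrolyses the by-product of methylation reactions, in all 3 chemistries, with log2 changes of 2.02, 2.21 and 1.62. It also called MAT2A, which makes S-adenosylmethionine, the substrate of AMD1 (1.43, 1.62 and 1.24), and PSME3, a proteasome activator subunit (1.58, 1.84 and 1.68). MAT2A had high constants in the authors' deposited table, 0.534, 0.440 and 0.637 under IH. DHPS, which uses spermidine to modify the translation factor EIF5A, was called in the authors' deposited table with NaIO4/TFEA (2.84) and with OsO4/NH3 (2.63), and ATP13A2, a lysosomal polyamine transporter, with OsO4/NH3 only (2.30). EIF5A itself, the spermine synthase SMS, the amino acid transporters SLC3A2 and SLC7A1, and MYC, a transcription factor known to drive ODC1, were not called in any chemistry for which the authors' deposited table holds them, SMS with NaIO4/TFEA only. MYC had negative log2 changes there in all 3 (-0.22, -0.24 and -0.26).

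By the 6 constants of the authors' deposited table (3 chemistries, both handlings), the transcripts closest to each gene among 1471 with all 6 were found by the mean absolute log2 difference. ODC1 was closest to CLTC (0.18) and SHISA5 (0.21), where the median transcript lay 0.89 away. SRM was closest to CHD4 (0.14) and MYH9 (0.20), with a median of 1.01, and OAZ1 to MRPL37 (0.16) and PSMB4 (0.17), with a median of 1.02. These are descriptions of likeness over 6 values from the authors' deposited table.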

How the data were processed

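The authors deposited a table of read counts, split by library, alignment, gene and intron, and by how many T positions and T-to-C mismatches a read has. The submitters' processing notes name GRCh38, cutadapt, HISAT2, STAR, HISAT, Picard, HTSeq and DESeq2; their versions and settings codes are not given in the sources used here. The authors also deposited bakR rate constants, whose time unit is not stated, the log2 change from DO to IH, and an adjusted p-value; the direction of the log2 value, IH over DO, was read from the constants. 

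Analysed were the 18 libraries whose chemistry was run under both handlings; the 10 samples of other chemistries were not analysed here. HISAT-3N D was the main alignment. Exonic reads were those not marked intronic whose exon column names 1 gene, a choice made after seeing that the gene column gives OAZ1 none. The 6 genes, the pathway list and the marker lists were chosen with earlier results of these data known. All 6 genes are described in each comparison whatever their values; of the pathway list, those found in the rate table are counted and those called are given with values.

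Counts were tested with edgeR 4.0.16 in R 4.3.3 (TMM, filterByExpr, quasi-likelihood fit over 12 groups, contrasts averaged over chemistries), with DESeq2 1.42.0 as an alternative. Converted and unconverted reads were tested in edgeR with a term per library, where every labelled library had 50 or more exonic reads of the gene. Shares of new reads were tested by two-sided exact permutation of handling within chemistry and within-library differences by exact sign flips (4096 for 12 libraries). All p-values were adjusted by Benjamini-Hochberg over all genes tested, with 0.05 as the threshold. Chi-square tests between libraries of 1 group gave 2.13 to 9.07 per degree of freedom, more than sampling noise, so none was taken for a library deposited more than once; this does not show separate cultures. Replicate numbers were not used to pair the libraries. Alternatives were other alignments, read minimums, scalings, read classes, DESeq2, a replicate block and leaving out each library. Sequences were not used here.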

Additional observations from a re-analysis of the deposited data

Results flagged for a closer look

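Of 36 sets of 6 labelled libraries examined for a library far from the others (6 genes, both handlings, 3 measures), 0 held one by Dixon's criterion. The change in the s4U effect on counts between handlings was called for none of the 6 genes.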

How the results depend on the processing

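Of 963 values of single genes under alternatives, 920 kept their direction and their side of the threshold, 15 lost the call, 4 gained one and 24 turned in direction, none of them called after the turn. Of count differences between handlings, those of ODC1 turned when scaled to the exonic total (0.23 labelled, 0.35 unlabelled) and to all aligned reads (0.19 and 0.35). These scalings also moved the median gene (from 0.47 to 1.03 and 0.99 in labelled RNA). Relative to it ODC1 stood at -0.81, -0.80 and -0.80, values that could hardly differ, since a scaling moves all genes nearly alike. The difference of SAT1 turned in labelled RNA with all reads of the gene (-0.065). The s4U effect under DO turned for AMD1 with all reads (0.12) and with DESeq2 (0.058) and for SAT1 with STAR D (-0.021), and the OsO4/NH3 to iodoacetamide difference in converted share of OAZ1 turned with HISAT2 D (-0.039); the cause was not tested. Leaving out 1 library turned some values. Over all such fits, turned or not, they ranged from -0.29 to 0.024 for ODC1 in unlabelled RNA. The s4U effect under DO ranged from -0.23 to 0.40 for AMD1 and -0.54 to 0.44 for SAT1. Its change between handlings ranged from -0.71 to 0.079 for AMD1, -0.0396 to 0.50 for AZIN1 and -0.86 to 0.13 for SAT1. Between those chemistries the range was -0.60 to 0.25 for SRM and -0.018 to 0.35 for OAZ1. Of the 6 genes, those called numbered 1 in place of 2 for converted share with the gene column, which holds no OAZ1 read (1633 of 1992 genes in all), and 1 in place of 2 for new reads with STAR D (1797 of 2601), where the cause was not tested. With at least 10 reads, 4 in place of 2 were called between aligners (2921 of 6078 genes), where more genes could then be tested. For intronic against exonic reads, 3 in place of 0 were called with at least 10 reads and IH libraries alone (6576 of 6991 genes); with at least 10 reads over both handlings, none of the 6 could be tested. Leaving out 1 library gave 5 to 6 of the 6 genes called for labelled counts (10375 to 10979 over all genes), 5 to 5 for unlabelled counts (8493 to 9948), 2 to 2 for converted share (1552 to 1860) and 1 to 3 for new reads (1263 to 1436), where fewer arrangements remain. SAT1 in unlabelled RNA was not called with all reads (0.57, edgeR adjusted p = 0.20), where ODC1 was (-0.89, edgeR adjusted p = 0.00148). ODC1 in labelled RNA had an adjusted p of 0.0547 in DESeq2. Over all genes, the s4U calls under DO numbered 29, against 96 with HISAT2 D, 101 without a filter, 57 with DESeq2 and 17 with all reads; under IH they numbered 31, against 97 with HISAT2 D, 60 without a filter and 8 with STAR D. None of the 6 genes was among these calls in any of these settings. For AMD1 under IH, however, the s4U effect was -0.71 with HISAT2 D (edgeR adjusted p = 0.0521) and -0.39 with STAR D, against -0.25 in the main fit. Replicate numbers were shared across groups, and 3 of 15 pairs of groups had count deviations correlated above 0.1 (median 0.032, highest 0.537), so by counts the pairing was not borne out. Replicate 1 had the higher mismatch rate of new RNA in 6 of 6 groups, however, and the higher converted share of SRM in 6 of 6. With the replicate number as a block, 6 genes were called for labelled counts (10342 of 12408 genes), 2 for converted share (1779 of 2081) and 0 for chemistry (2 of 2081). Permuted within chemistry and replicate number, chosen after seeing the data, new reads gave 1 in place of 2 (1323 of 2081 genes): OAZ1 had an adjusted exact permutation p of 0.0492 and ODC1 of 0.0839, where the smallest p before adjustment is 0.03125. Over all 18 libraries, a fit also chosen after seeing the data, with the unlabelled ones, which carry no number, set midway, the block changed no call of the 6 genes: 6 were called for labelled counts, 5 for unlabelled counts (9772 of 13528 genes) and 0 for s4U effects under DO (84), under IH (42) and for their difference (3). Low read numbers limit AMD1, AZIN1 and above all SAT1 under DO. The labelled libraries themselves held 951743 to 2960991 exonic reads under DO and 912229 to 2287006 under IH.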

Other observations

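In the unlabelled iodoacetamide IH library, the background of OAZ1 (12.8% of 243 exonic reads converted) was higher than that of 99.8% of the 6314 genes with at least 50 reads there, and the background of SRM (9.47% of 190 reads) higher than that of 99.2%, where the median gene had 2.90%. In the unlabelled NaIO4 and TFEA IH library OAZ1 stood at 4.49%, above 86.8% of 10486 genes, and SRM at 2.47%, above 42.4%. In the unlabelled OsO4 and NH3 IH library OAZ1 stood at 2.02%, above 46.4% of 7701 genes, and SRM at 2.75%, above 62.4%. In the unlabelled iodoacetamide DO library OAZ1 stood at 5.96%, above 92.9% of 3621 genes, and SRM at 4.37%, above 80.4%. In the unlabelled NaIO4 and TFEA DO library OAZ1 stood above 69.4% and SRM above 74.6% of 4661 genes. The unlabelled OsO4 and NH3 DO library had OAZ1 above 43.4% and SRM above 76.7% of 3210 genes. Of the other members, AMD1 stood at 5.91% in the unlabelled iodoacetamide IH library, above 91.3% of genes. ODC1, AZIN1 and SAT1 stood above 82.6%, 76.4% and 74.8% there. In the iodoacetamide IH library every converted OAZ1 read carried a single mismatch, and those of SRM carried 1.06 on average. With 1 unlabelled library in each group, the spread of this background is unknown.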
